A study of Homo sapiens with 18 samples.

Results

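The ZNF genes are human genes named ZNF and a number, most of which encode proteins with C2H2 zinc fingers. The members were chosen by symbol and measured level: every row whose symbol had this form and whose mean over the 18 libraries was at least 1.0 above the lowest log2 value of the table. This gave 377 of 462 ZNF symbols, among 37096 named genes, and 85 symbols lay below the level. The level chose the members, so it is given here as a description only. ZNF91 lay just outside it with a mean of 22.2 normalised reads (0.997 above the lowest log2 value), and ZNF404 just inside with 24.1 (1.04 above). All 377 members had reads in every library.

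Each C2H2 finger folds around a zinc ion and reads a few bases of DNA, and an array of fingers reads a longer site. Many ZNF proteins also carry a KRAB box, which recruits the corepressor TRIM28 and, through it, the H3K9 methyltransferase SETDB1, and a main role of this group is the silencing of transposable elements. Human KRAB genes lie mostly in clusters on chromosome 19 that arose by tandem duplication. A smaller group carries a SCAN box, through which the proteins pair, and several ZNF genes act outside transcription, in ribosome quality control, ribosome assembly or mitosis.

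Polyadenylated RNA was sequenced from HEK293T, a line derived from human embryonic kidney that carries the SV40 large T antigen. Cells had been transfected with the empty pLEX vector or with MethionaseNLS, a methionine-degrading enzyme with a nuclear localisation signal. The 6 groups were the empty vector in DMSO at 12 h, methionase in DMSO at 12 h, the empty vector in DMSO at 24 h, methionase in DMSO at 24 h, the empty vector with Vps34-IN1 at 24 h and methionase with Vps34-IN1 at 24 h. Vps34-IN1 blocks VPS34, a class 3 PI3K that makes a lipid needed for autophagy and endosome traffic, and was given at 5 µM for 12 h. Each group held 3 libraries, all from transient transfection of a single line. No group received an inactive enzyme, so the activity of methionase and the expression of a foreign protein cannot be told apart. The labels give neither the length of DMSO treatment in each group nor whether the replicates were separate cultures, so the p-values measure the spread between these libraries, which may be technical.

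Total reads per library ranged from 18278586 to 20825232, and between 24354 and 26380 genes had a read. Markers of the line were present, with medians of 11440 normalised reads for VIM, 273.5 for KRT8 and 142.3 for PAX2, and LHX1 was low at 8.54. Of the genes of other cell types, CD3E, DCN, PECAM1 and VWF had medians of at most 1.83 normalised reads and ALB 5.23, while the collagen gene COL1A1 was present at 551.2. Normalised reads are read counts divided by the size factor of the library. The text calls a gene higher or lower only where the adjusted p (limma, Benjamini-Hochberg over 17755 tested genes) was below 0.05. Log2 differences are on the deposited variance-stabilised scale, where differences between low values come out smaller than in reads. The largest changes are ranked on this scale, and a gene of low level can change more in reads than one ranked above it.

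The promoters of the 3 largest decreases and of 3 of the largest increases 24 h after methionase are shown first, as examples. They were taken among named genes with a single entry in the RefSeq promoter table (GRCh38.p14), and genes of 1 chromosome were not shown. ZNF596 and ZNF449, the largest increases on the log2 scale, are therefore not among them. Each line is the 250 bases before the start that this table gives, 5′ to 3′ on the strand of the gene. For ZNF333 that start lies inside the RefSeq gene, which begins at 14689787, so its line lies within the gene. In all lines capitals mark the motifs searched on both strands: the core of the ZNF143 motif as ACTACAA, the ETS motif as CCGGAAG, the GC box as GGGCGG, the CRE motif as TGACGTCA and the TATA box as TATAAA. The NRF1 motif was searched as GCGCA followed, after 1 base of any kind, by GCGC. ZNF629 lies on the minus strand (chr16:30787206-30787455), ZNF778 on the plus strand (chr16:89217453-89217702) and ZNF268 on the plus strand (chr12:133181245-133181494), and these were lower. ZNF143 on the plus strand (chr11:9460762-9461011), ZNF692 on the minus strand (chr1:248859086-248859335) and ZNF333 on the plus strand (chr19:14689798-14690047) were higher.
ZNF629: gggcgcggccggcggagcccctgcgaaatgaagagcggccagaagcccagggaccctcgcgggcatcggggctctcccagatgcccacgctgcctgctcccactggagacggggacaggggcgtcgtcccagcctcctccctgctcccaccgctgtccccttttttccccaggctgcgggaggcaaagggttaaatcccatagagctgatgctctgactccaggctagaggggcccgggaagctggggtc
ZNF778: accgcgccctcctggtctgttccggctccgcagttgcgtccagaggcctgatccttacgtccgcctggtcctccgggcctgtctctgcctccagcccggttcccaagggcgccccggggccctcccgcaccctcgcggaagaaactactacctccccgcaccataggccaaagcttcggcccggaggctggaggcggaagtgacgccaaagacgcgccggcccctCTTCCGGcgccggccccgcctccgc
ZNF268: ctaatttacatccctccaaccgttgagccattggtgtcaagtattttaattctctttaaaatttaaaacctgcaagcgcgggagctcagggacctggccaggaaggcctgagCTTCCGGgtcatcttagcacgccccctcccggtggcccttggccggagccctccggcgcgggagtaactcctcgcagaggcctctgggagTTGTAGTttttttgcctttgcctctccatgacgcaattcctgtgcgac
ZNF143: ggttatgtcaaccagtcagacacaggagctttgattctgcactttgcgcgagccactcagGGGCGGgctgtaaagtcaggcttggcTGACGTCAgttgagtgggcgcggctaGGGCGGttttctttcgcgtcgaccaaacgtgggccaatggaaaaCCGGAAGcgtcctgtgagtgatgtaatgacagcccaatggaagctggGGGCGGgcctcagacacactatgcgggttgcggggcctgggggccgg
ZNF692: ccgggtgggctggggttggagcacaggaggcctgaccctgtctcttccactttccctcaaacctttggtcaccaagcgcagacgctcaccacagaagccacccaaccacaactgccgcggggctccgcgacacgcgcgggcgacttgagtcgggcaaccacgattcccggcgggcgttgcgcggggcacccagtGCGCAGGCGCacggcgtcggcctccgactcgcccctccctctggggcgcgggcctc
ZNF333: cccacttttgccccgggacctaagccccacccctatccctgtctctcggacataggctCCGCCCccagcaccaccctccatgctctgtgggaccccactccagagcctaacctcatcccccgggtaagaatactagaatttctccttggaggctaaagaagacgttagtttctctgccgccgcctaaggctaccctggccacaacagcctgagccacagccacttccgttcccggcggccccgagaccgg
The ZNF143 promoter held 3 GC boxes, 1 ETS match and 1 CRE match, and that of ZNF268 held 1 ETS match and 1 ACTACAA match. ZNF778 held 1 ETS match, ZNF692 held 1 NRF1 match, ZNF333 held 1 GC box, and the ZNF629 window held none of these letters. Of the 377 members, 328 matched the promoter table, with 429 promoters. The ETS letters stood in 25.9% of the members' promoters and in 8.5% of all 35116 promoters of the same length, GC boxes in 58.7% and 42.6%, ACTACAA in 6.3% and 2.5%, NRF1 in 11.2% and 5.1%, CRE in 3.3% and 1.6%, and TATA in 4.4% and 10.7%. The median promoter of a member held 18 CpG pairs, against 11 over all promoters. All promoters were taken whatever the level of their gene here, while members had to reach a level. The 2 sets are therefore unlike, and expressed genes outside the ZNF group were not counted apart. Among members lower 24 h after methionase the ETS share was 28.5% of 179 promoters, among higher members 18.2% of 44 and among the others 25.2% of 206. A match to letters is a description and not a binding site.

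Proteins were translated from GENCODE 29 transcripts. A KRAB pattern was found in the protein of 221 members and not found in 155, and 1 member is a transcribed pseudogene with no protein. The SCAN pattern was found in 17. Both are text patterns that miss diverged boxes. The number of C2H2 fingers had a median of 10 and reached 33, in ZNF462, and 9 members had no match to the finger pattern, among them ZNF703 and ZNF503. Of the members, 172 lie on chromosome 19, 141 of them with a KRAB pattern, and 205 elsewhere. Most were low: the median member had 222.6 normalised reads, and all tested genes had a median of 314.5. KRAB members had a median of 125.9 and the others 394.0. Per kilobase of exon the highest were ZNF703, a nuclear corepressor gene of luminal breast cancers, with 2439 normalised reads per kilobase, ZNF768 with 1590 and its ZNF703 relative ZNF503 with 1429, against a median of 42.5 over the members.

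As a group, the ZNF genes were lower 24 h after methionase, with and without the drug. The mean log2 level of the members was 8.39, 8.45 and 8.43 in the 3 libraries of the empty vector at 12 h and 8.40, 8.42 and 8.39 with methionase at 12 h. At 24 h it was 8.41, 8.43 and 8.43 with the vector and 8.22, 8.27 and 8.28 with methionase. With Vps34-IN1 it was 8.39, 8.43 and 8.41 in vector cells and 8.23, 8.23 and 8.37 in methionase cells. The methionase libraries at 24 h thus lay below every vector library, and replicate 3 of methionase with Vps34-IN1 stood apart from its 2 partners. The members took 0.868% ± 0.00803 (SD, n = 3) of the reads in vector cells at 24 h and 0.768% ± 0.0223 (SD, n = 3) in methionase cells. With the drug these shares were 0.859% ± 0.0129 (SD, n = 3) and 0.762% ± 0.0512 (SD, n = 3). Fewer cells with ZNF RNA and less of it per cell cannot be told apart in bulk RNA.

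**Figure D1:**
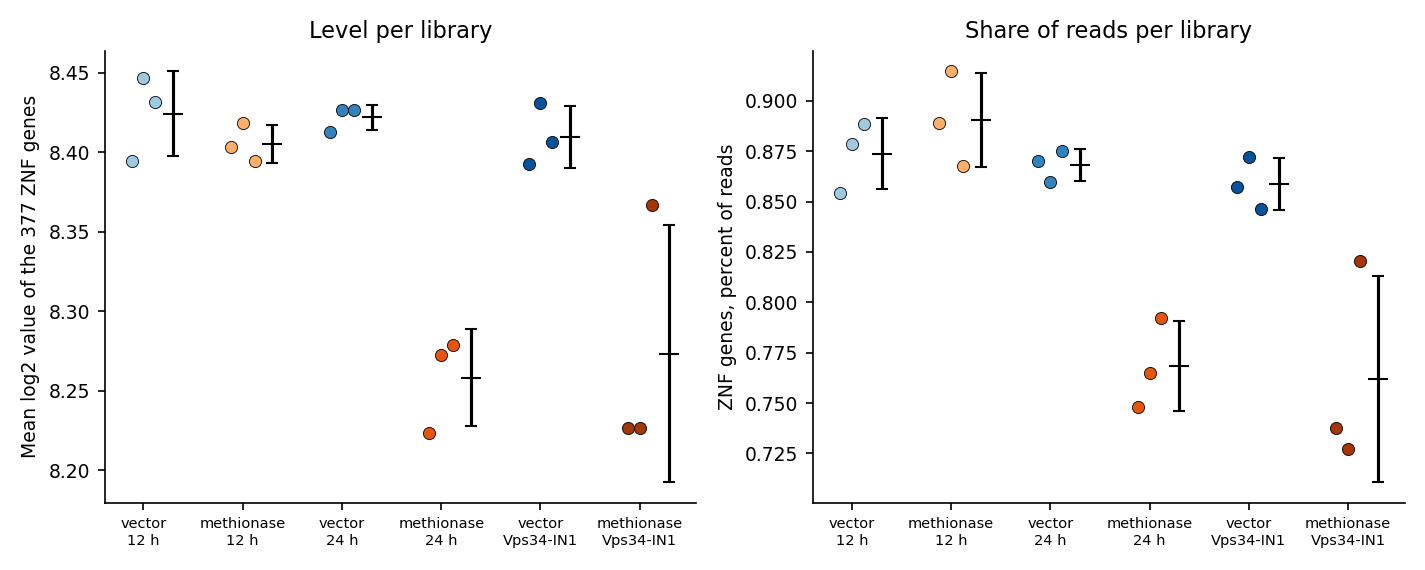
Mean log2 value of the 377 ZNF genes (left) and their percent of all reads (right) in each of the 18 libraries, by group. Points are libraries and bars the mean ± SD of 3. The methionase libraries at 24 h lie lowest, and replicate 3 of methionase with Vps34-IN1 lies at 8.37, above its 2 partners at 8.23.

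Other RNA moved with these groups. The share of histone genes whose RNA normally lacks a poly-A tail was 0.0118% at 12 h in vector cells and 0.0136% at 24 h, and 0.0756% with methionase, 0.0714% with the drug and 0.160% with both at 24 h. The share of mitochondrial rRNA was 0.548%, 1.49%, 1.20% and 2.18% in the same 4 groups of 24 h. Their part in the ZNF differences was not tested.

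At 12 h, methionase had changed few ZNF genes. ZNF143 was higher, and ZNF395, ZNF551, ZNF622 and ZNF207 were lower, out of 377. Of all tested genes 0.681% were called higher and 1.49% lower. ZNF143, a transcription factor that activates snRNA genes and many CpG-rich promoters, had 516.1, 424.5 and 424.0 normalised reads with the vector and 607.4, 666.8 and 614.5 with methionase. The log2 difference was 0.41 ± 0.07 (SE, adjusted p = 0.00698). ZNF395, a DNA-binding protein induced by hypoxia, had 1517, 1233 and 1153 with the vector and 928.8, 901.9 and 957.8 with methionase (log2 difference -0.44 ± 0.08 SE, adjusted p = 0.00484). ZNF622 and ZNF207 work outside transcription, in 60S ribosome maturation and in kinetochore attachment. They had log2 differences of -0.32 (adjusted p = 0.0246) and -0.31 (adjusted p = 0.0384), and the KRAB gene ZNF551 of -0.39 (adjusted p = 0.0291). Most of these calls were lost with fewer libraries, while the differences kept their direction. ZNF622 lost its call in all 6 fits that left out a library, at log2 differences of -0.34 to -0.30, and ZNF207 (-0.39 to -0.25) and ZNF551 (-0.44 to -0.34) kept theirs in 1 of 6. ZNF395 kept its call in 5 of 6 (-0.52 to -0.33) and ZNF143 in 4 of 6 (0.37 to 0.49). At an unadjusted p below 0.05, 20 members were higher and 34 lower. All tested genes were not counted at this threshold, so these 2 counts have no share to be set against. In 64 members every methionase library lay below every vector library, and in 41 above, against 17.7% and 11.8% of all tested genes. Without vector replicate 1 the called counts were 2 higher and 3 lower, without vector replicate 2 they were 1 and 1, and without vector replicate 3 they were 0 and 1. Without methionase replicate 1 they were 1 and 1, without replicate 2 they were 0 and 0, and without replicate 3 they were 1 and 1. All 5 genes were called in the same direction at 24 h. So were 77.7% of all tested genes called higher at 12 h and 90.5% of those called lower. The median log2 difference of the members was -0.024, and that of all tested genes was -0.005.

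At 24 h in DMSO, 46 members were higher and 167 lower after methionase, and 164 were not called by limma. Of all tested genes 18.1% were higher and 21.1% lower, against 12.2% and 44.3% of the members. Genes of at least the members' minimum level gave 18.4% and 25.1%. The median log2 difference of the members was -0.183 and that of all tested genes 0.007. In 192 members every methionase library lay below every vector library, and in 50 above, against 25.7% and 23.0% of all tested genes. Under the other scalings the median of the members stayed between -0.174 and -0.145, and 148 to 173 members were lower.

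**Figure D2:**
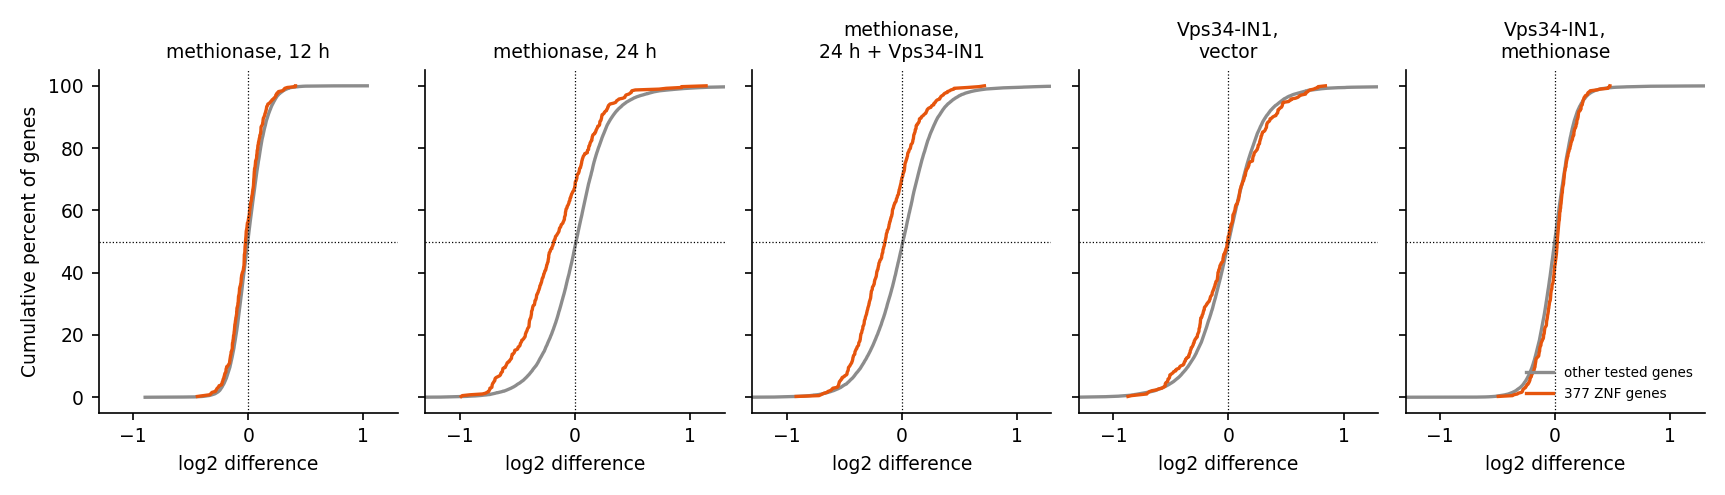
Cumulative percent of genes (vertical) up to each log2 difference (horizontal) for the 377 ZNF genes and the other tested genes in 5 comparisons. The ZNF curve lies left of the other genes in both methionase comparisons at 24 h, with medians of -0.183 and -0.144, and close to them in the other 3. Genes beyond the ends of the horizontal axis are not drawn.

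ZNF629, with 19 fingers and no KRAB pattern (chr16:30778456-30787205, RefSeq, GRCh38.p14), had the largest decrease on the log2 scale. It had 2124, 2196 and 2031 normalised reads with the vector and 1059, 878.3 and 1155 with methionase. The ratio of the means was 0.487 (log2 difference -0.99 ± 0.07 SE, adjusted p = 6.23e-10). ZNF778, a KRAB gene (chr16:89217703-89237141), had 520.8, 558.0 and 540.9 against 241.7, 225.4 and 238.6 (log2 difference -0.98 ± 0.08 SE, adjusted p = 1.28e-09). The KRAB gene ZNF268 (chr12:133181495-133214832) had 323.2, 339.4 and 300.9 against 126.2, 157.4 and 124.9 (log2 difference -0.91 ± 0.08 SE, adjusted p = 7.46e-09). The groups of these genes did not overlap either. The other 5 of the 8 largest decreases were ZNF45 at -0.80, ZNF287 at -0.78, ZNF189 and ZNF395 at -0.77 and -0.75 and ZNF497 at -0.75 on the log2 scale. ZNF45, ZNF287 and ZNF189 carry a KRAB pattern, and ZNF287 a SCAN pattern too. ZNF497 fell from 109.3, 83.7 and 105.2 normalised reads to 25.7, 39.3 and 42.7. Its ratio of means was 0.361, and those of ZNF268 and ZNF778 were 0.424 and 0.436, so in reads these fell further than ZNF629.

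The increases were fewer. ZNF596, a KRAB gene, had 105.6, 120.9 and 134.8 normalised reads with the vector and 274.8, 436.0 and 362.5 with methionase (log2 difference 1.14 ± 0.15 SE, adjusted p = 2.30e-06). It was the only member beyond 1 on the deposited log2 scale, though not in reads. ZNF449, a SCAN gene, had 389.7, 409.2 and 501.2 against 666.2, 1119 and 949.4, and rose by 0.93 ± 0.12 (SE, adjusted p = 1.96e-06). ZNF143 (chr11:9461012-9528524) had 392.4, 357.1 and 427.3 against 824.5, 807.0 and 816.4, a ratio of means of 2.08 (log2 difference 0.92 ± 0.07 SE, adjusted p = 1.86e-09). Its increase was larger than at 12 h by 0.51 ± 0.11 (SE, adjusted p = 0.00240, interaction with time). ZNF692 and ZNF333 rose by 0.79 and 0.73 log2, and ZNF121, ZNF34 and ZNF589 by 0.52, 0.49 and 0.49. By the rule of choice, the groups of these 8 did not overlap.

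**Figure D3:**
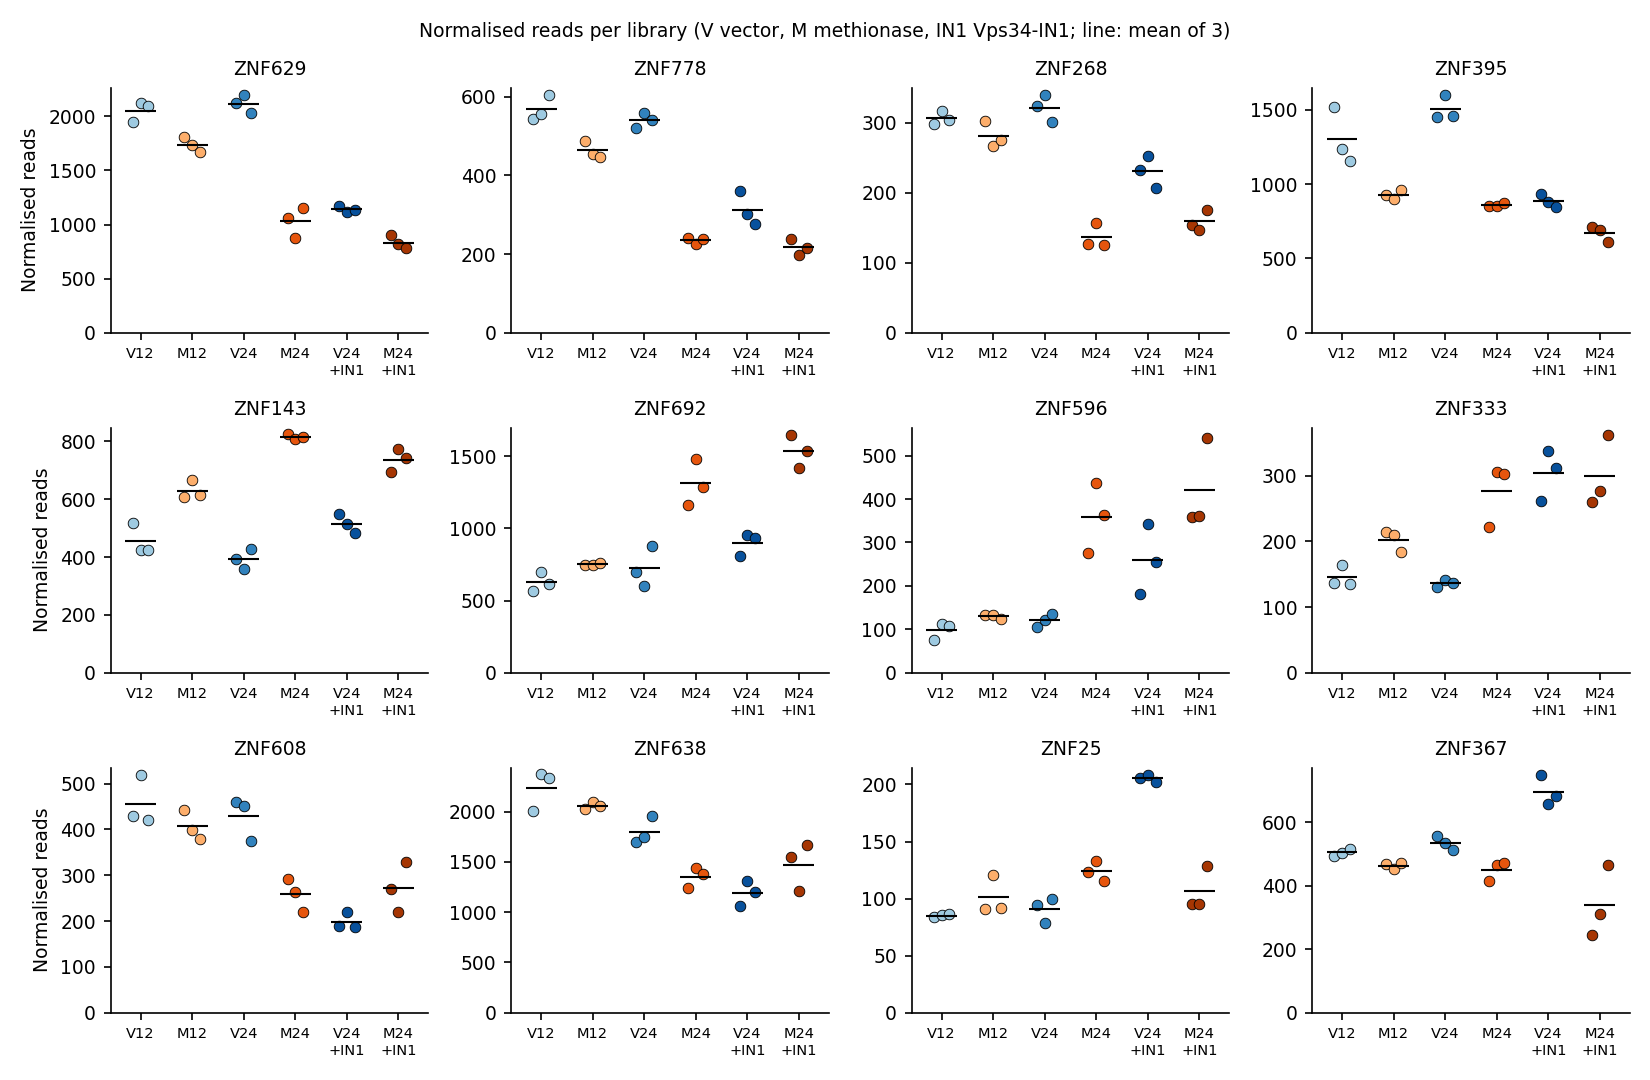
Normalised reads in each library for 12 ZNF genes by group, with the group mean as a line; the vertical axes start at 0. The top row shows genes lower with methionase and with the drug, the middle row genes higher with both, and the bottom row genes whose response to methionase differed with the drug. The interaction with the drug was also called for genes of the upper rows, among them ZNF395, ZNF143 and ZNF333.

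Counts by class are given as descriptions. Of the 221 KRAB members 22 were higher and 114 lower (51.6%), with a median log2 difference of -0.246, and of the other 155 there were 24 higher and 53 lower (34.2%), with a median of -0.077. On chromosome 19, 13 of 172 were higher and 90 lower, and elsewhere 33 of 205 and 77. The 17 SCAN members had 3 higher and 4 lower. By fingers, 18 of 55 members with up to 4 fingers were lower and 40 of 80 with at least 15. Of the KRAB members 141 lie on chromosome 19, and KRAB members were lower in level, and these splits were not tested against each other. In the lowest of 4 classes of level of near-equal size (24.1 to 98.3 mean normalised reads) 55 of 95 members were lower and 6 higher, while of 1432 other protein-coding genes in the same range 183 (12.8%) were lower and 229 higher. In the highest class (488.8 to 8169 mean normalised reads) 30 of 94 members were lower, or 31.9%, and 31.4% of the other protein-coding genes. Within the lowest class 49 of 81 KRAB members and 6 of 14 others were lower, and within the highest 9 of 23 and 21 of 71.

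**Figure D4:**
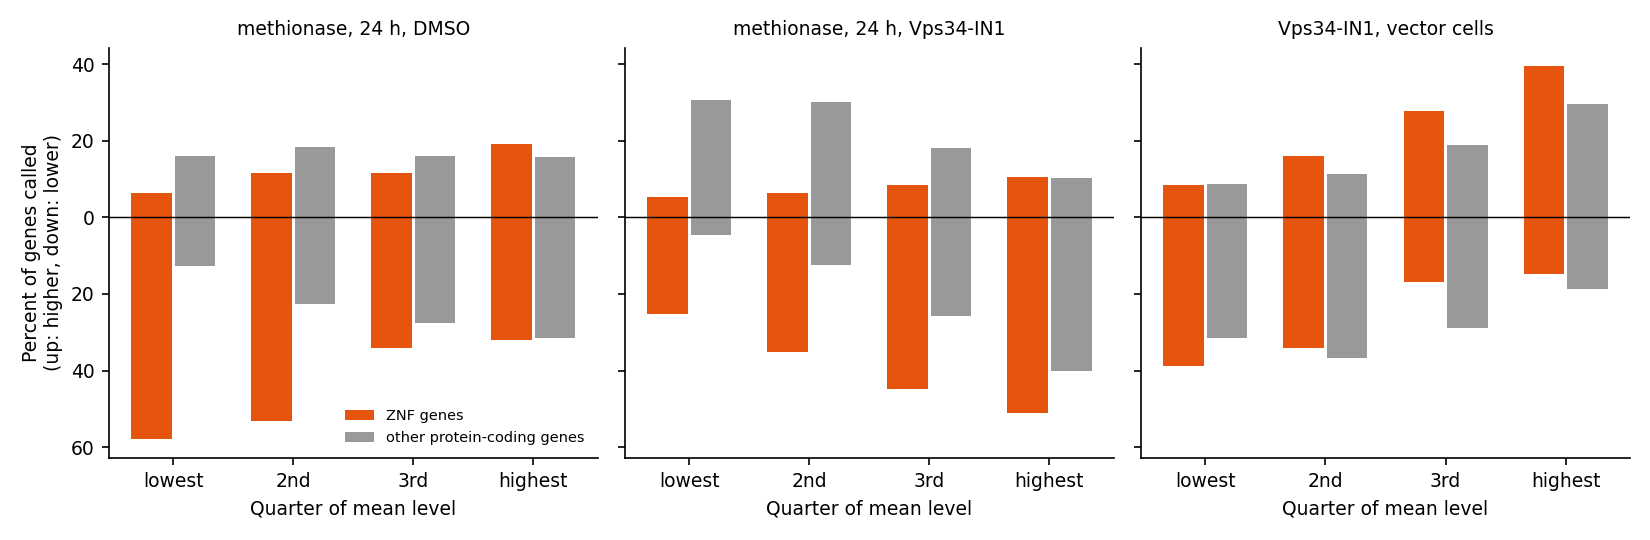
Percent of genes called higher (upward bars) and lower (downward bars) in 4 classes of mean level, for ZNF genes and for other protein-coding genes in the same range of level. After methionase in DMSO the ZNF genes of the lowest class were lower in 57.9% and the other genes in 12.8%, and in the highest class the shares were 31.9% and 31.4%.

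The members of chromosome 19 were also counted by gene cluster. ZNF symbols with gaps of at most 500000 bases were joined, which gave 8 blocks of 10 or more symbols (RefSeq, GRCh38.p14). In the block of chr19:51571283-53580269, from ZNF175 to ZNF331, 17 of 25 members were lower and 1 higher after methionase at 24 h. The block of chr19:43530835-44500522 had 12 of 18 lower, and that of chr19:57191500-58489533, which holds ZNF274, had 24 of 36 lower and 2 higher. In the pericentromeric block of chr19:19668153-24129968 only 34 symbols gave 13 members, and 2 of them were lower. In the block of chr19:55476617-56671757, 5 of 13 were lower and 4 higher. The blocks of chr19:9140397-9786160, chr19:11483429-12633834 and chr19:36182060-37779586 had 3 of 9, 8 of 14 and 10 of 23 lower, and 2, 0 and 1 higher. Of all members 44.3% were lower, and of all tested genes 21.1%. The blocks differed in level too. In the order of naming, their medians were 86.9, 79.95, 100.4, 149.2, 176.8, 384.4, 85.6 and 101.4 mean normalised reads. Neighbours in a block are similar in sequence, so reads of near-identical copies may be split between them, and the blocks were not compared by a test.

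The methionase difference itself was compared between the times. The methionase difference at 24 h was lower than that at 12 h in 79 members and higher in 7, against 6.33% and 5.33% of all tested genes. The largest negative interactions were ZNF268 at -0.82 ± 0.12 (SE, adjusted p = 6.41e-05), the KRAB genes ZNF658 at -0.78 and ZNF786 at -0.75, and ZNF629 at -0.76. ZNF596 (0.88), ZNF449 (0.72), ZNF692 (0.56) and ZNF143 were the largest positive ones. Of the KRAB members 55 had a negative interaction and 3 a positive one, and of the others 24 and 4. Without methionase replicate 2 of 24 h the 79 became 52. With equal library medians there were 12 positive and 59 negative.

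Time alone changed few members in vector cells: 7 were higher at 24 h than at 12 h and 5 lower, against 4.61% and 6.88% of all tested genes. ZNF32 had 358.0, 412.3 and 399.9 normalised reads at 12 h and 290.4, 278.0 and 283.4 at 24 h (log2 difference -0.37 ± 0.07 SE, adjusted p = 0.00140). ZNF316 had 750.5, 793.6 and 910.2 against 1173, 1023 and 1086 (log2 difference 0.39 ± 0.08 SE, adjusted p = 0.00320). ZNF81, ZNF318, ZNF638 and ZNF106 were lower too, by 0.28 to 0.34 log2, and ZNF517, ZNF710, ZNF836 and ZNF783 were higher by 0.22 to 0.30. Each of these 8 calls was lost in at least 2 of the 6 fits that left out a library. With equal library medians 4 were higher and 10 lower. The counts were smaller in most fits that left out a library. Without vector replicates 2 and 3 of 12 h they were 1 higher with 2 lower and 1 with 1, and without replicates 1 and 2 of 24 h they were 1 with 2 and 2 with 3.

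With Vps34-IN1 in vector cells 185 ZNF genes were called, in both directions, and the median of the group was near that of all tested genes. Against DMSO, 86 members were higher and 99 lower, and 192 were not called. Of all tested genes 20.2% were higher and 19.9% lower, against 22.8% and 26.3% of the members. The median of the members was -0.006 and that of all tested genes 0.002. The share of increases was near that of all tested genes, and the share of decreases was somewhat above it. The order of the directions depended on the scaling, with 97 higher and 74 lower after quantile normalization and 102 and 75 with equal library medians.

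The largest decrease with the drug was in ZNF608 (chr5:124636915-124748824, RefSeq, GRCh38.p14), which had 459.8, 450.1 and 374.7 normalised reads in DMSO and 188.5, 220.6 and 186.6 with Vps34-IN1 (log2 difference -0.87 ± 0.10 SE, adjusted p = 5.59e-07). ZNF629 had 1176, 1118 and 1133 with the drug, against the DMSO libraries given above (log2 difference -0.84 ± 0.07 SE, adjusted p = 5.25e-09). The KRAB gene ZNF114 went from 46.4, 36.3 and 61.8 to 11.3, 10.2 and 7.26, a ratio of means of 0.199, which the log2 scale gives as -0.78. By the same rule of choice, the groups of these genes did not overlap. ZNF395, ZNF235, ZNF396, ZNF552 and ZNF778 were lower by 0.66 to 0.71 log2.

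The largest increase was in ZNF333, with 131.1, 141.3 and 136.6 in DMSO and 262.2, 338.1 and 312.0 with the drug (log2 difference 0.84 ± 0.10 SE, adjusted p = 8.47e-07). The KRAB gene ZNF25 had 94.7, 79.0 and 99.7 against 205.9, 208.4 and 202.1 (log2 difference 0.78 ± 0.09 SE, adjusted p = 2.64e-07). The highest member per kilobase, ZNF703, rose from 7607, 7201 and 6554 to 12450, 11000 and 11610 (log2 difference 0.71 ± 0.09 SE, adjusted p = 9.57e-07). ZNF92, ZNF596, ZNF697, ZNF449 and ZNF678 were higher by 0.69 to 0.78.

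Counts by level ran in opposite directions for increases and decreases, as a description. In the lowest class 37 of 95 members were lower and 8 higher, and in the highest 14 of 94 were lower and 37 higher. Of the other protein-coding genes in these ranges 31.4% were lower and 8.7% higher in the lowest, and 18.6% and 29.7% in the highest. Of the KRAB members 67 were lower and 44 higher, and of the others 32 and 42. Among the 8 blocks of chromosome 19, that of chr19:43530835-44500522 had the largest share lower, 11 of 18. The pericentromeric block had the largest share higher, 6 of 13, and none lower. Of all members 26.3% were lower and 22.8% higher.

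With Vps34-IN1 present, methionase lowered 147 ZNF genes. Against drug-treated vector cells 29 members were higher, 147 lower and 201 not called, beside 17.3% higher and 22.2% lower of all tested genes. The median was -0.144, and without replicate 3 of methionase with Vps34-IN1, which stood apart, it was -0.185 with 22 higher and 162 lower. Of the 167 members lower in DMSO 93 (55.7%) were lower with the drug, which is 63.3% of the 147. Over all tested genes these shares were 49.3% and 46.9%. The 2 comparisons have no library in common. For increases the shared members were 10, or 21.7% and 34.5%, against 38.8% and 40.4% of all tested genes. Another 7 members were higher in DMSO and lower with the drug, and 4 the reverse.

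ZNF367 (chr9:96385941-96418370) showed the largest decrease, from 746.8, 657.8 and 682.1 normalised reads to 244.7, 310.2 and 465.1 (log2 difference -0.92 ± 0.11 SE, adjusted p = 7.70e-07). Its highest methionase library was the replicate that stood apart. ZNF764 had 564.4, 508.7 and 500.7 against 298.1, 294.8 and 270.1 (log2 difference -0.72 ± 0.07 SE, adjusted p = 5.57e-08). ZNF2, ZNF14, ZNF503, ZNF25, ZNF473 and ZNF408 were lower by 0.62 to 0.70. ZNF473, a component of the machinery that processes histone pre-mRNA, had 529.9, 518.0 and 600.9 normalised reads in DMSO vector cells, 330.4, 342.4 and 355.4 with methionase, 800.0, 862.1 and 851.0 with the drug and 384.6, 491.7 and 682.5 with both. The share of poly-A-minus histones given above was higher than in DMSO vector cells in all 3 of the treated groups. ZNF473 itself was lower with methionase and higher with the drug alone, and a relation between ZNF473 and this share was not tested. ZNF692 rose by 0.72 ± 0.10 (SE, adjusted p = 5.48e-06) and ZNF467 by 0.67, from 126.0, 99.1 and 104.7 to 220.1, 226.6 and 202.8. ZNF596, ZNF143, ZNF852, ZNF891, ZNF782 and ZNF250 were higher by 0.40 to 0.57.

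By level the counts ran the other way from those in DMSO, again as a description. In the lowest class 24 of 95 were lower and in the highest 48 of 94. The other protein-coding genes were lower in 4.7% and 40.1%, and higher in 30.5% of the lowest class, where 5.3% of the members were higher. KRAB members (87 of 221 lower) and the others (60 of 155 lower) gave shares of 39.4% and 38.7%.

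The methionase difference changed with the drug in 88 members, by a test of the interaction, 50 positive and 38 negative. Positive means that the difference between methionase and vector cells was higher with the drug than in DMSO. Of all tested genes 9.91% were positive and 11.9% negative, against 13.3% and 10.1% of the members. Without replicate 3 of methionase with Vps34-IN1 there were 46 positive and 59 negative. Of the 50, 48 were lower after methionase in DMSO and 12 with the drug. In vector cells 46 of the 50 were lower with the drug (median -0.503), and in methionase cells 2 were lower and 0 higher. Of the 38, 16 were higher after methionase in DMSO, and 29 were lower with the drug. In vector cells 34 of the 38 were higher with the drug (median 0.437), and in methionase cells 2 were lower and 0 higher. The interaction holds the same libraries as these comparisons, so their counts describe it and do not add to it. KRAB members were 37 of the 50 and 17 of the 38, and 221 of all 377 members. They were lower in level than the others, and the signs differed with level among other protein-coding genes too. In the lowest class of level 14.2% of those genes were positive and 4.3% negative, and in the highest 10.1% and 19.8%. A difference between KRAB members and the others apart from level was not tested.

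**Figure D5:**
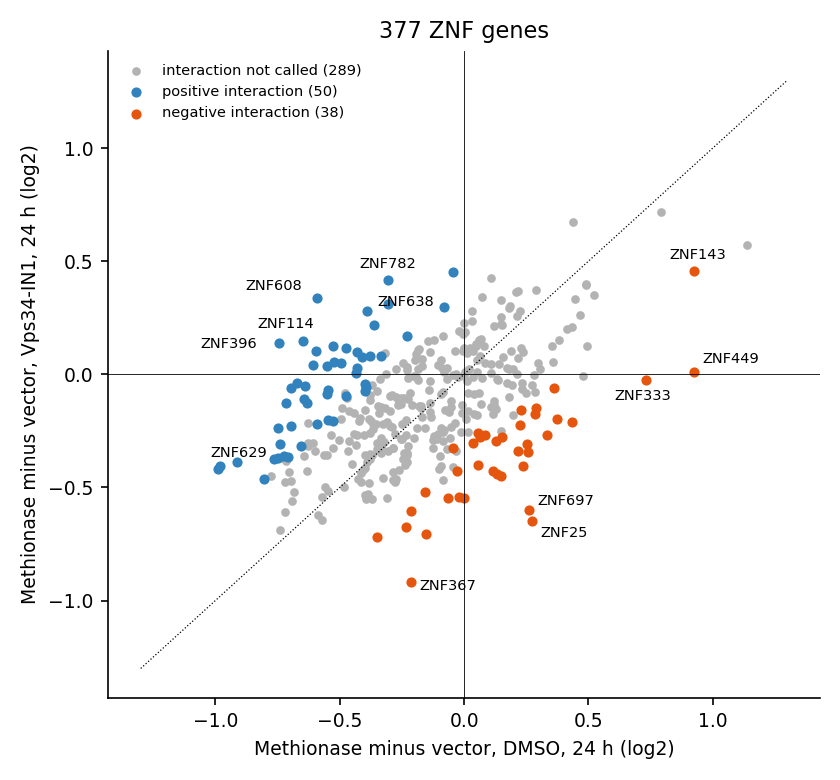
Log2 difference between methionase and vector cells at 24 h in DMSO (horizontal) and with Vps34-IN1 (vertical) for the 377 ZNF genes, coloured by the interaction test. The dotted line marks equal differences. The 50 positive genes lie above it and mostly left of 0, and the 38 negative genes lie below it.

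The largest negative interactions were ZNF25 at -0.92 ± 0.13 (SE, adjusted p = 1.45e-05), ZNF449 at -0.91 ± 0.17 (SE, adjusted p = 0.000475), ZNF697 at -0.86 and ZNF333 at -0.75. ZNF25 had 123.0, 132.9 and 115.8 normalised reads with methionase in DMSO and 95.1, 95.7 and 128.9 with methionase and drug, so that the drug-treated vector libraries lay highest at 24 h. ZNF333 had 222.4, 305.2 and 302.6 with methionase, and 259.6, 276.1 and 362.0 with both, which overlaps the 262.2 to 338.1 of the drug alone. ZNF449 had 698.6, 799.8 and 751.5 with the drug alone and 710.5, 657.8 and 921.2 with both. ZNF608 had the largest positive one (0.93 ± 0.15 SE, adjusted p = 9.01e-05). It had 291.9, 262.6 and 219.3 with methionase and 270.3, 220.0 and 328.4 with both, so its 3 treated groups lay below every DMSO vector library. ZNF396 (0.88), ZNF114 (0.80) and ZNF782 (0.72) came next. ZNF782 had 48.1, 56.2 and 57.0 with the drug alone, and 93.0, 88.0 and 95.3 with both.

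In methionase cells the drug changed few ZNF genes. Only 8 members were higher and 11 lower, against 2.95% and 4.98% of all tested genes. ZNF217, a breast cancer oncogene product that works with corepressors, had 438.4, 396.6 and 417.3 normalised reads in DMSO and 289.6, 203.5 and 341.8 with the drug (log2 difference -0.49 ± 0.10 SE, adjusted p = 0.00244). ZNF395 fell further, from 855.5, 850.6 and 872.2 to 708.4, 690.7 and 607.4 (log2 difference -0.33 ± 0.08 SE, adjusted p = 0.00914). ZNF550 had 137.9, 127.6 and 158.4 against 198.7, 215.6 and 262.2 (log2 difference 0.48 ± 0.09 SE, adjusted p = 0.00210), and ZNF202 and ZNF473 were higher by 0.46 and 0.47. ZNF652, ZNF689, ZNF576, ZNF275, ZNF146 and ZNF512 were lower by 0.19 to 0.32, and ZNF48, ZNF205 and ZNF708 higher by 0.24 to 0.28. Each of these 9 calls, and that of ZNF473, was lost in at least 1 of the 6 fits that left out a library, ZNF473 and ZNF689 in 1. Without replicate 1 of methionase with Vps34-IN1 there were 22 higher, without methionase replicate 1 in DMSO 4 higher, and without methionase replicate 3 in DMSO 3 lower. Other scalings gave 15 higher and 10 lower (quantile) and 18 and 5 (equal medians). Which direction held more members therefore depended on the scaling.

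A list of 26 ZNF genes with a well-known role was followed in every comparison, and 24 were members. ZNF93, which restrains LINE-1 elements, had at most 3.06 normalised reads in any library, and ZNF91, which restrains SVA elements, between 11.2 and 33.2. Of the 24, 4 were higher and 10 lower 24 h after methionase in DMSO, 4 and 12 with the drug present, and 5 and 4 with the drug in vector cells. Of all tested genes 18.1% were higher and 21.1% lower, 17.3% and 22.2%, and 20.2% and 19.9% in these 3 comparisons, so the last count is near the share of all genes.

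The translation and ribosome genes gave mixed values. ZNF598, the ubiquitin ligase that senses collided ribosomes, had 1769, 1700 and 1743 normalised reads in DMSO vector cells and 2650, 2225 and 2471 with the drug, and rose by 0.47 ± 0.07 (SE, adjusted p = 1.01e-05). With methionase in DMSO it had 1739, 1654 and 1886, a log2 difference of 0.02 that was not called. Methionase with the drug lowered it by 0.26 against the drug alone (adjusted p = 0.00566), with overlapping groups, and the quantile scaling lost this call (-0.13). ZNF622 was lower with methionase in DMSO (-0.33, adjusted p = 0.00124) and with the drug (-0.46, adjusted p = 4.06e-05). ZNF593, a 60S export factor, had log2 differences between -0.13 and 0.24 and passed limma's threshold in none of the 8 comparisons.

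Among cofactors of chromatin, ZNF687 and ZNF592, which share a complex with ZMYND8, gave different values. ZNF687 was lower with methionase in DMSO by 0.55 ± 0.08 (SE, adjusted p = 3.96e-06) and with the drug by 0.52. ZNF592 had 1508, 1522 and 1504 in DMSO vector cells, 1571, 1544 and 1417 with methionase, 2091, 2031 and 2081 with the drug and 1201, 1465 and 1517 with both, and its interaction was -0.55 ± 0.10 (SE, adjusted p = 0.000275). ZNF451, a SUMO ligase, gave a like interaction of -0.59, with 1263, 1227 and 1195 normalised reads with the drug alone and at most 1082 in the other libraries of 24 h. ZNF638, which silences unintegrated retroviral DNA with the HUSH complex, was lower with methionase in DMSO (-0.39) and with the drug in vector cells (-0.57). Its interaction was 0.67 ± 0.13 (SE, adjusted p = 0.000670). Its difference of 0.28 with the drug was called, but the groups overlapped and the call was lost without replicate 1 of vector cells with the drug or without replicate 1 or 3 of methionase cells with it. ZNF644, a partner of the G9a methyltransferase complex, was lower with methionase by 0.42 and 0.44, in DMSO and with the drug.

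ZNF274, which brings SETDB1 to ZNF genes, had log2 differences between -0.31 and 0.24, interactions included, and passed limma's threshold in none of the 8 comparisons, nor were ZNF445, a regulator of imprinting, and ZNF24. ZNF10, the source of the KRAB box used in engineered repressors, had 104.7, 84.6 and 106.1 normalised reads in DMSO vector cells and 56.7, 42.5 and 55.9 with methionase (log2 difference -0.50 ± 0.09 SE, adjusted p = 0.000174). ZNF148 and ZNF281, which bind GC-rich DNA, were lower by 0.40 and 0.37. ZNF711, which binds CpG-island promoters, was higher with methionase by 0.36, a call lost without methionase replicate 2, and with the drug by 0.47. ZNF335, part of an H3K4 methyltransferase complex, was higher by 0.21, a call lost without vector replicate 3 or methionase replicate 2. ZNF462 was higher by 0.42, ZNF827, which brings NuRD to telomeres, was lower by 0.43, and ZNF207 by 0.28, a call lost without vector replicate 3 or methionase replicate 1. With drug present ZNF423 was higher by 0.28, a call made in 2 of 6 fits that left out a library.

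The partners of the KRAB box were followed as a list of 23 tested genes. In DMSO at 24 h 4 were higher and 7 lower after methionase (17.4% and 30.4%), with a median of -0.044. Of other protein-coding genes in the highest class of ZNF levels 15.7% were higher and 31.4% lower, so these shares are near those of other genes. The called members are given as examples. TRIM28 was lower by 0.41 ± 0.07 (SE, adjusted p = 2.34e-05) and SETDB1 by 0.26 ± 0.06 (SE, adjusted p = 0.000481). TASOR, of the HUSH complex, was lower by 0.44, SMARCAD1 by 0.68, UHRF1 by 0.51, HDAC1 by 0.31 and PPHLN1 by 0.24. ATRX, CHD3, MORC2 and CBX1 were higher by 0.47, 0.39, 0.20 and 0.15. With the drug in vector cells 5 were higher and 5 lower (21.7% each), against 29.7% and 18.6% of other protein-coding genes in the highest class. There TRIM28 had a log2 difference of -0.11 that was not called. With both, against the drug alone, 3 were higher and 6 lower (26.1% lower). Of other protein-coding genes in the highest class 10.4% were higher and 40.1% lower, so the list's share of decreases was below theirs. Among the 6, TRIM28 and SETDB1 were lower by 0.25 and 0.26. At 12 h TRIM28 had a log2 difference of -0.19 after methionase that was not called (adjusted p = 0.115). With time in vector cells 11 of the 23 were lower (47.8%), against 6.88% of all tested genes, with a median log2 difference of -0.158. The list had a median of 3927 normalised reads and all tested genes 314.5, so these shares are for genes of unlike level.

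Other C2H2 families were compared as counts. After methionase at 24 h in DMSO, 10 of 33 ZBTB genes were higher and 12 lower (median -0.030), 2 of 21 ZSCAN and ZKSCAN genes were higher and 10 lower (median -0.191), and 1 of 12 ZFP genes was higher and 4 lower (median -0.028). The ZNF median was -0.183. In the same order the shares lower were 36.4%, 47.6% and 33.3%, and the shares higher 30.3%, 9.5% and 8.3%. Of all tested genes 21.1% were lower and 18.1% higher. The median levels of the families were 438.4, 324.2 and 286.6 normalised reads. Of other protein-coding genes in that class of level (222.4 to 477.1) 27.5% were lower and 16.1% higher. With the drug present the medians were -0.112, -0.183 and -0.148, beside -0.144 for the ZNF genes. These are descriptions, and the families were not tested against each other.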

How the data were processed

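RNA of 18 HEK293T libraries was measured in 6 groups of 3, and groups were taken from the sample labels. The authors deposited variance-stabilised log2 values per gene. Per the submitters' processing notes, the authors used STAR 2.7.10b, featureCounts, DESeq2, limma and the build hg38, with no roles named. Annotation and strand setting are not given in the sources used here. Reads of overlapping genes and of similar ZNF copies may therefore be mixed. Undoing the transformation gave whole reads (within 0.01) for 100.0% of values, and these set totals and normalised reads. Size factors were 0.89 to 1.1, and the line without a gene name held at most 0.0022% of reads and was left out.

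The log2 values of 17755 genes with a mean at least 0.5 above the lowest value (5.45) entered a limma model (version 3.58.1, R 4.3.3) that had a mean for each group and a variance trend. P-values were adjusted by the Benjamini-Hochberg method over all tested genes, and genes below 0.05 were called. On simulated counts for the methionase comparison at 24 h (17755 genes, 50 changed per fold), 66% of 1.25-fold, 88% of 1.5-fold, 92% of 2-fold and 100% of 4-fold changes were recovered, and 3.4% of calls were false. Named genes were the 8 largest called changes in each direction whose groups did not overlap, the 4 largest per direction for interactions, and the followed list. The members and lists were chosen with earlier results of these data known. Alternatives were other filters, scalings and variance models, voom on the recovered reads, a replicate block and leaving out each library. Tables and figures were made with Python 3.11.15, pandas 2.3.3, numpy 2.4.6 and matplotlib 3.10.9.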

Additional observations from a re-analysis of the deposited data

Results flagged for a closer look

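The response of ZNF genes to methionase differed between DMSO and Vps34-IN1, by the interaction test of limma, in 88 members, of which 50 were positive and 38 negative (13.3% and 10.1%). Of all tested genes 9.91% were positive and 11.9% negative, so the members' total is near the share of all genes. Among the named genes the interaction was positive for ZNF608 at 0.93, ZNF396 at 0.88, ZNF114 at 0.80, ZNF782 at 0.72, ZNF638 at 0.67, ZNF827 at 0.53 and ZNF395 at 0.38 on the log2 scale. It was negative for ZNF25 at -0.92, ZNF449 at -0.91, ZNF697 at -0.86, ZNF333 at -0.75, ZNF451 at -0.59, ZNF592 at -0.55 and ZNF143 at -0.47. Each of these 14 genes kept its call in all 12 fits that left out 1 library.

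The response differed between 12 h and 24 h, by the interaction with time, with 7 positive and 79 negative members, against 5.33% and 6.33% of all tested genes. ZNF596 at 0.88, ZNF449 at 0.72, ZNF692 at 0.56 and ZNF143 at 0.51 were positive. ZNF268 at -0.82, ZNF658 at -0.78, ZNF629 at -0.76, ZNF786 at -0.75, ZNF687 at -0.50 and ZNF148 at -0.40 were negative. These 10 genes also kept their calls in all 12 such fits.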

How the results depend on the processing

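In methionase cells at 24 h, in DMSO and with Vps34-IN1, and with the drug in vector cells, the member counts stayed within 1.5 times under the 7 other settings. Without a filter, lower members were 2 after methionase at 12 h and 5 with the drug in methionase cells, and 1 was higher and 3 lower with time. Quantile normalization gave 2 lower at 12 h, 15 higher with the drug in methionase cells and 11 positive interactions with time. Equal library medians gave 9 lower at 12 h, 18 higher and 5 lower with the drug in methionase cells, 12 positive interactions with time, and 4 higher and 10 lower with time. Voom gave 2 higher at 12 h, and no variance trend gave 3 lower with time. The causes were not tested.

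Leaving out each library gave 0 to 2 higher and 0 to 3 lower at 12 h, 32 to 42 and 149 to 159 at 24 h, 20 to 30 and 120 to 162 with the drug, and 70 to 78 and 77 to 90 for the drug in vector cells. It gave 4 to 22 and 3 to 16 for the drug in methionase cells, 40 to 53 and 33 to 59 for the drug interaction, 5 to 9 and 52 to 86 for the time interaction, and 1 to 6 and 1 to 6 for time. The median drug interaction of the members was 0.035, and it ranged from -0.009, without replicate 3 of methionase with Vps34-IN1, to 0.064, without its replicate 2. The median at 24 h in DMSO ranged from -0.247 (voom) to -0.145 (equal medians).

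Of 45 pairs of groups and numbers, 13 had correlated deviations over 0.1 (median r 0.014), and 6 of 18 libraries correlated best with their own number. The numbers thus gave no sign of a pairing. Libraries with different numbers were correlated too. Methionase replicate 1 of 24 h in DMSO had r 0.346 with vector replicate 2 and -0.415 with vector replicate 3 of 24 h in DMSO. A batch shared under other numbers was not tested. With the replicate block 45 members were higher and 168 lower at 24 h in DMSO, and 28 and 146 with the drug.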
